A study of Mus musculus with 9 samples.

Results

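The cell cycle and DNA replication genes followed here in mouse liver are a list of 41 genes set by name, in 6 groups that run from the G1 cyclins and origin licensing through DNA synthesis and the G2/M kinases to the spindle. Of the 41 genes, 39 had a value, out of 19938 genes measured with a probe set of their own. Cdkn1a, which encodes the cyclin-dependent kinase inhibitor p21, was read only by a probe set shared with another transcript, and Ccnb1, which encodes cyclin B1, had no probe set named with 1 gene, so neither is reported. A mean over the 9 pools above the median of all genes was found for 13 of the 39, so most members lay in the lower range of these arrays.

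Liver RNA came from male C57BL/6J mice, pooled from 5 mice per group and hybridised to 1 array per pool. The reference pool (LF-NP at week 0) was made after a run-in on the low fat, normal protein diet that all groups shared, and the other 8 pools came from mice fed a low fat (LF, 10% of energy) or high fat (HF, 35%) diet with normal (NP, 15%) or high (HP, 50%) protein for 1 or 12 weeks. Carbohydrate supplied 75% of energy in LF-NP, 40% in LF-HP, 50% in HF-NP and 15% in HF-HP. More protein and more fat each meant less carbohydrate, and HF-HP was the diet with the least. The effects of protein or fat and of less carbohydrate therefore cannot be told apart. The labelled ages were 12 weeks for the reference pool, 13 weeks for the 1 week pools and 22 weeks for the 12 week pools, the last being 2 weeks less than the feeding schedule gives. Livers were taken after a meal, and each diet and week is 1 pool of mice without a replicate pool. Values are log2 expression estimates, whose medians differed by at most 0.064 between arrays, and the correlation between any pair of arrays over all probe sets was 0.988 or more. The summed linear signal of 11 hepatocyte markers was 102380 to 114305 over the diet pools. It was 4106 to 4857 for 9 stellate cell markers, 2899 to 3878 for 7 endothelial markers and 1946 to 3430 for 10 macrophage markers. For 9 T and NK cell markers it was 199 to 250.

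In the adult liver most hepatocytes rest outside the cell cycle and can re-enter it after injury, loss of tissue or a change in growth signals. Cyclin D1 and cyclin E carry a cell through G1, which frees E2F transcription factors to switch on the genes of origin licensing, nucleotide supply and DNA synthesis. The mitotic genes follow later under FOXM1, B-MYB and the DREAM and MuvB complexes, which act through CHR and CCAAT elements near the start of transcription. In whole liver RNA, fewer dividing cells and less RNA per dividing cell cannot be told apart.

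Since many members were high in the same pools, the sequences just upstream of their transcription starts are given first for 5 of them. Cdk1, Ccnb2, Mcm6 and Rrm1 were higher in the HF-HP pools than in all other diet pools, and Rrm2 was the member lower there. Each sequence is the 250 bases before the start in RefSeq on build GRCm38.p6, written 5′ to 3′ on the strand of the gene. Capitals mark E2F octamers (TTTCCCGC, TTTCGCGC, TTTGCCGC or TTTGGCGC), CHR hexamers (TTTGAA or TTCGAA) and the CCAAT pentamer, each searched on both strands.
Cdk1 (chr10:69352913-69353162, minus strand): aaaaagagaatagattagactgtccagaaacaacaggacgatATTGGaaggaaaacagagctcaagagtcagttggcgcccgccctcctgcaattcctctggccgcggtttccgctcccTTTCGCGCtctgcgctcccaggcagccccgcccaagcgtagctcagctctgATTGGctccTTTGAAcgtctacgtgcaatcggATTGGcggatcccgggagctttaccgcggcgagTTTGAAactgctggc
Ccnb2 (chr9:70421555-70421804, minus strand): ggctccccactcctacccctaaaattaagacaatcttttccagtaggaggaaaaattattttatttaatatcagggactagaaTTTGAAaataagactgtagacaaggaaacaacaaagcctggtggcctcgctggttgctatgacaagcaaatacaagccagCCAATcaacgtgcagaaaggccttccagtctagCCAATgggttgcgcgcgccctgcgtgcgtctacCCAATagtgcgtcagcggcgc
Mcm6 (chr1:128359706-128359955, minus strand): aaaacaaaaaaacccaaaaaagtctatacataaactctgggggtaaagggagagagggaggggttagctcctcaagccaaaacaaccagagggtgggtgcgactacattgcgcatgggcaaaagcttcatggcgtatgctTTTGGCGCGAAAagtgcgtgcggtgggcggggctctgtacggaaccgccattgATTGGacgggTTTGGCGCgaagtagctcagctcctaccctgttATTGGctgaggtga
Rrm1 (chr7:102441445-102441694, plus strand): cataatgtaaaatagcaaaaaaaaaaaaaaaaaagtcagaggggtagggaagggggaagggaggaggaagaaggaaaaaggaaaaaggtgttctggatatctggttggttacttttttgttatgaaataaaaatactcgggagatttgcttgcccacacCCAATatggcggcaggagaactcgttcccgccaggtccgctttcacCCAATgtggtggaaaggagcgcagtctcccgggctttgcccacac
Rrm2 (chr12:24708004-24708253, plus strand): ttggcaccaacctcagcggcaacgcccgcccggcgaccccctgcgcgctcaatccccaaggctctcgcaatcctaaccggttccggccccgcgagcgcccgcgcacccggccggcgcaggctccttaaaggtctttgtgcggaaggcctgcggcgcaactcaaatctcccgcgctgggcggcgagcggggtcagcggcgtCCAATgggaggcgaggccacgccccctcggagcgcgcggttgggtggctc

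The Cdk1 window holds 1 E2F octamer, 2 CHR hexamers and 3 CCAAT pentamers, and the Ccnb2 window 1 CHR hexamer and 3 CCAAT pentamers. In the Mcm6 window there are 3 E2F octamers, of which 2 overlap on opposite strands, and 2 CCAAT pentamers. Rrm1 has 2 and Rrm2 has 1 CCAAT pentamer with neither of the other motifs. Whether the motifs differ between members high in the HF-HP pools and the other members was not tested. Windows were held for 32 of the 41 members (35 windows). An E2F octamer was in 14.3% of these windows against 1.86% of all 32851 windows, a CHR hexamer in 28.6% against 17.1%, and a CCAAT pentamer in 68.6% against 33.8%. The E2F octamers lay upstream of Cdc6, Cdk1, Mcm5, Mcm6 and Mcm7, and Cdk1 and Mcm7 held all 3 motifs. A match of letters is a description of the window and not a bound site.

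The comparison of high with normal protein asked whether the protein content of the diet moved the genes of cell division, at either fat level. No member passed the test for protein in limma (adjusted p under 0.05 over all genes), where 88 genes, 0.441% of those tested, were called. That number was 1 to 36 with 1 pool left out and 39 with the matched pairs of a fat level and week as blocks, and up to 219 among genes above the median level. The median HP minus NP difference was 0.11 on the log2 scale over the members and lay near 0 over all genes, and it was 0.05 when HF-HP of 1 week and 0.19 when LF-NP of 12 weeks was left out. At an unadjusted p under 0.05, 7 of the 39 members stood out, E2f1, Rrm1, Ccna2, Ccnb2, Cdk1 and Bub1 with a higher and Rrm2 with a lower level in HP pools, against 10.3% of all genes. For fat no member and no gene was called (0%), and 5 members reached an unadjusted p under 0.05 (Mcm2, Cdk1, Kif11 and Mki67 upward, Rrm2 downward) against 3.33% of genes. For week, no member was among the calls (1 gene, 0.00502%), and only Rrm2 reached an unadjusted p under 0.05, against 7.71% of genes.

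Of the 39 members, 24 had the highest of their 9 values in the HF-HP pool of 1 week and 4 in that of 12 weeks, and for the other members the top was in a pool of another diet or in the reference pool. How often genes at large have their top in each of the 9 pools was not counted. For 20 of the 39 members both HF-HP pools lay above the other 6 diet pools, which held for 6.18% of all genes. Both HF-HP pools lay below the others for 1 member, Rrm2, and for 3.77% of genes. The 20 members were Ccnd1, Ccne1, E2f1, Cdt1, Mcm2, Mcm3, Mcm4, Mcm5, Mcm6, Rrm1, Ccna2, Ccnb2, Cdk1, Plk1, Aurka, Bub1, Prc1, Nusap1, Top2a and Mki67. For 17 of these 20 the HF-HP pools were also above the reference pool. Among all genes this held for 1152 of the 1233 with both HF-HP pools above the other 6 diet pools.

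The difference between the HP effect on high fat and the HP effect on low fat, the protein-by-fat term, was positive for 33 of the 39 members (median 0.31, log2). Over all genes its median was 0.03, and it was positive for 11284 of 19938. At an unadjusted p under 0.05 it was positive for 15 members and negative for none, while 7.02% of all genes reached this in either direction and 4.79% in the positive one. After adjustment over all genes no member and no gene (0%) was called, and the smallest adjusted p of a member was 0.541, for Rrm1 and Top2a. Within week 1 the term had a median of 0.30 over the members and was positive for 34, against 0.02 and 53.2% over all genes. Within week 12 it was 0.25 and positive for 32, against 0.05 and 56.5% over all genes. For the 10 Kupffer cell and macrophage markers the medians were 0.74 and 0.48, with 9 and 10 positive. The count of 15 members was 4 without the LF-NP pool of 12 weeks, against 2.67% of genes. It was 7 without the HF-HP pool of 1 week, against 7.2%, and 7 without the HF-NP pool of 1 week, against 4.99%. Without the LF-HP pool of 1 week it was 8, against 4.31%.

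**Figure D1:**
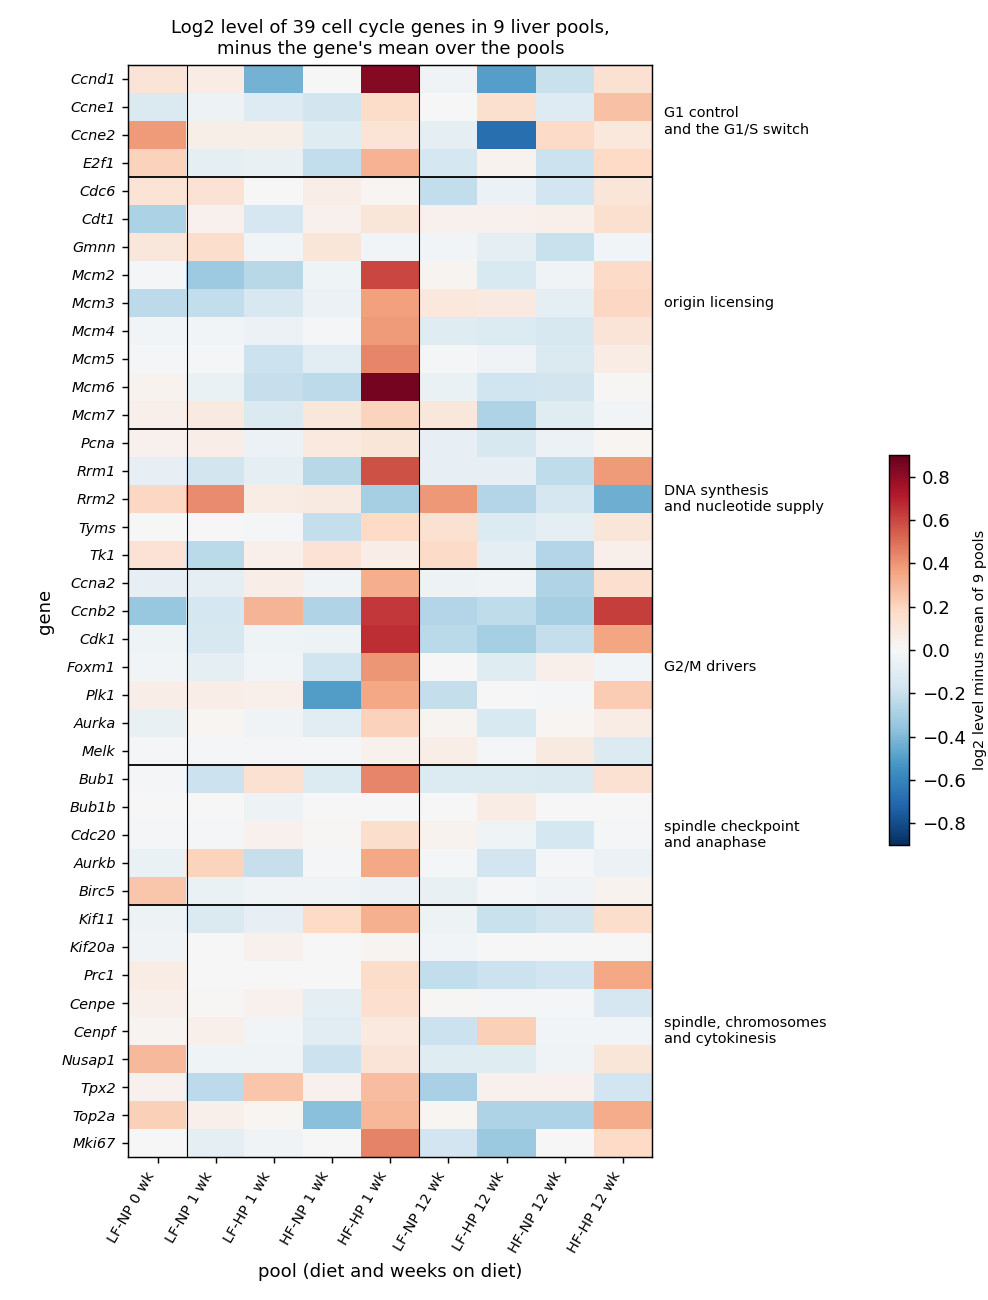
Log2 level of each of the 39 members (rows, by group) in the 9 pools (columns), minus the mean of that gene over the pools, in colour from low (blue) to high (red). The column of the HF-HP pool of 1 week is the highest of the 9 pools for 24 members and the lowest for 0, and Rrm2 runs the other way. These counts were not made over all genes.

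Taken fat level by fat level, the HP minus NP difference had a median of 0.23 over the members in HF pools. There 36 of 39 members were positive, against 10254 of 19938 genes. An unadjusted p under 0.05 in that direction was reached by 19 members, against 5.79% of genes. In LF pools the median was near 0, with 19 members positive and 20 negative. No member was called after adjustment in HF pools (31 genes, 0.155%, and 0 to 3 genes with any pool left out) or in LF pools (2 genes, 0.01%). The HF minus LF difference had a median of 0.26 in HP pools, where 17 members reached an unadjusted p under 0.05 upward against 4.95% of genes, and a median of -0.03 in NP pools, with no gene called in either (0%). Since the HF-HP pools enter several of these differences, they are not independent of each other.

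Macrophage markers moved with the members in part. Of 10 Kupffer cell and macrophage markers, 7 had a positive protein-by-fat term at an unadjusted p under 0.05, with a median of 0.65, and their summed linear signal was 3191 to 3342 in the HF-HP pools, 1946 to 3430 in the other 6 diet pools and 2370 in the reference pool. Adgre1, the first marker of that list, read 7.69 and 7.85 in the HF-HP pools of 1 and 12 weeks, 6.84 and 6.94 in the LF-HP pools, and between 7.36 and 7.68 in the NP diet pools. The markers had their lowest mean of each week in the LF-HP pools, 9 of the 10 lay above the median level of all genes, and both HF-HP pools were above the other diet pools for 2 of them. The HF-HP pool was the highest of its week for 9 of the 10 at 1 week and for 7 at 12 weeks, against 25.2% and 30.6% of genes. The HF minus LF difference in HP pools reached an unadjusted p under 0.05 upward in limma for 9 of the 10, against 4.95% of genes. Endothelial markers had a median protein-by-fat term of 0.29, positive for 7 of 7, with 2 of 7 at an unadjusted p under 0.05. Hepatocyte markers had one of -0.08, with 2 of 11 at that threshold in the negative direction. The HF-HP pool was the highest of its week for 5 and 4 of the 7 endothelial markers at 1 and 12 weeks, and for 2 and 3 of the 11 hepatocyte markers. The part of these cells in the members' levels was not tested.

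**Figure D2:**
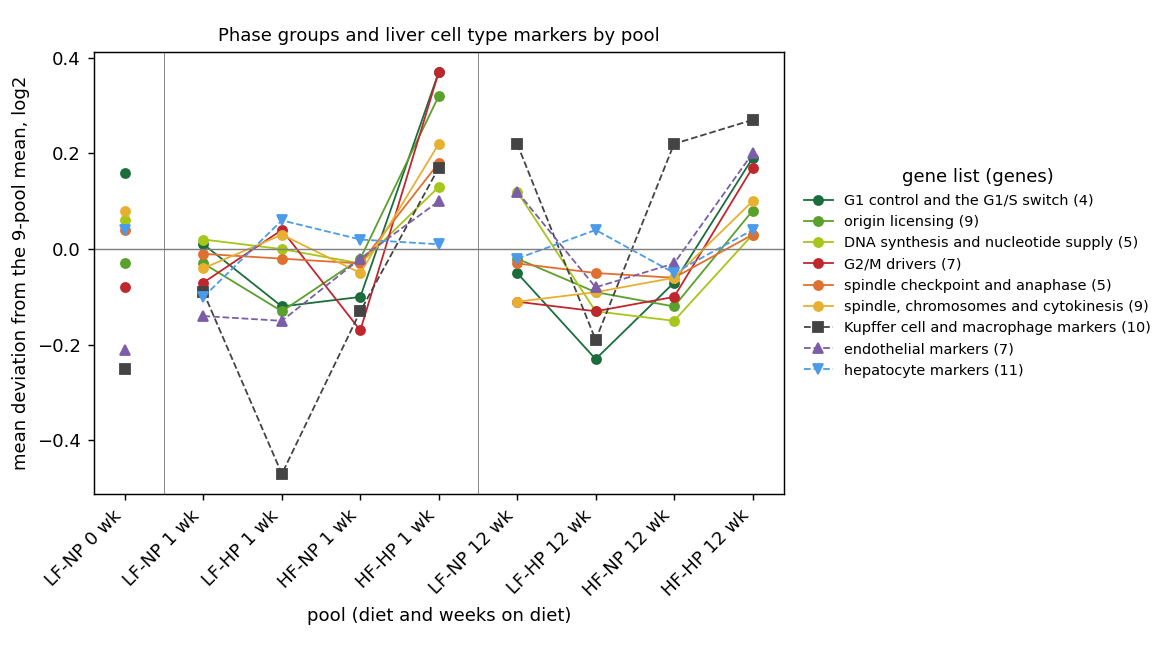
Mean deviation of the genes of each list from their mean over the 8 diet pools (y axis, log2), in each pool (x axis). The reference pool is drawn but is not part of that mean, although the axis label names a mean over 9 pools. Lines are for the 6 groups of members and for macrophage, endothelial and hepatocyte markers (dashed). In the HF-HP pool of 1 week the group means of the members lie between 0.13 and 0.37, above the other pools of that week, while the macrophage markers stand out by their low value of -0.47 in the LF-HP pool of 1 week.

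Of the genes of G1 control, Ccnd1 and Ccne2 were among the members with the widest spread, with ranges of 1.31 and 1.06 over the 9 pools. Ccne1 and E2f1 ranged over 0.43 and 0.53. Ccnd1, which encodes cyclin D1, the growth-factor sensor of G1, read 8.79 in the reference pool, 8.74 in LF-NP, 8.25 in LF-HP, 8.68 in HF-NP and 9.50 in HF-HP after 1 week, and 8.64, 8.18, 8.47 and 8.81 after 12 weeks. It was highest in HF-HP and lowest in LF-HP at both weeks, so HP stood above NP on high fat and below it on low fat. The HP minus NP difference was 0.58 ± 0.15 (SE) in HF pools, 1.49-fold, and -0.47 ± 0.15 in LF pools, and the protein-by-fat term was 1.05 ± 0.22 with an adjusted p of 0.547.

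E2f1, the transcription factor that drives S phase genes, read 6.86 in the reference pool, 6.56 in LF-NP, 6.58 in LF-HP, 6.43 in HF-NP and 6.96 in HF-HP after 1 week, and 6.49, 6.68, 6.46 and 6.83 after 12 weeks. The HF-HP pools were above the other diet pools, and the reference pool lay between them. Its HP minus NP difference was 0.28 ± 0.09 (SE), adjusted p 0.297. Ccne1, which encodes cyclin E1, the partner of CDK2 at the G1/S switch, read 5.95 in the reference pool, 6.03, 5.96, 5.91 and 6.24 for LF-NP, LF-HP, HF-NP, then HF-HP after 1 week, and 6.08, 6.22, 5.96 and 6.34 after 12 weeks. The HF-HP pools led at both weeks, with the LF-HP pool of 12 weeks next. Ccne2 (cyclin E2) had its highest value of 5.63 in the reference pool and its lowest of 4.57 in LF-HP at 12 weeks. HF-HP was its highest diet pool at 1 week, at 5.37, but read 5.34 against 5.42 in HF-NP at 12 weeks. The protein-by-fat term of Ccne2 was 0.37 ± 0.30 (SE), adjusted p 0.772.

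Origin licensing loads the MCM2 to MCM7 helicase onto DNA, with CDC6 and CDT1 as loaders and geminin (Gmnn) as the brake. Of its 9 members, 6 had both HF-HP pools above the other diet pools, Cdt1 and the helicase subunit genes Mcm2, Mcm3, Mcm4, Mcm5 and Mcm6. The HP minus NP difference in HF pools was positive for all 9, with a median of 0.33, and in LF pools it was negative for 7, with a median of -0.09.

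Mcm2 read 5.97 in the reference pool, 5.65, 5.73, 5.94 and 6.58 for LF-NP, LF-HP, HF-NP, then HF-HP after 1 week, and 6.00, 5.84, 5.95 and 6.15 after 12 weeks. Mcm4 read 5.85 in the reference pool, 5.85, 5.82, 5.86 and 6.26 after 1 week in the same order of diets, and 5.77, 5.75, 5.73 and 5.99 after 12 weeks. For both genes the HF-HP pools stood above the other 7 pools, further at 1 week than at 12. The protein-by-fat term was 0.46 ± 0.25 (SE) for Mcm2, adjusted p 0.733, and 0.35 ± 0.12 for Mcm4, adjusted p 0.704. Mcm6, chosen here after its values were seen, read 6.56 in HF-HP at 1 week, 5.71 at 12 weeks, and 5.46 to 5.64 in the other diet pools, with 5.73 in the reference pool, so most of its excess was in 1 pool. Gmnn read 4.56 in the reference pool, 4.62, 4.44, 4.57 and 4.44 after 1 week and 4.44, 4.38, 4.26 and 4.44 after 12 weeks. Its HF-HP pools lay among the others. Cdc6 and Mcm7 also had no lead of both HF-HP pools, with ranges of 0.35 and 0.48 over the 9 pools, and Mcm7 was lower with HP on low fat, by -0.29 ± 0.09 (SE), adjusted p 0.396.

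In DNA synthesis and nucleotide supply the genes of the subunits of ribonucleotide reductase, the enzyme that makes deoxynucleotides, went in opposite directions. Rrm1, the large subunit, read 7.02 in the reference pool, 6.93, 7.01, 6.85 and 7.67 for LF-NP, LF-HP, HF-NP, then HF-HP after 1 week, and 7.02, 7.02, 6.87 and 7.48 after 12 weeks. The 6 other diet pools spanned only 6.85 to 7.02, and the HF-HP pools were clear of them. In HF pools HP exceeded NP by 0.72 ± 0.09 (SE), 1.64-fold, with an adjusted p of 0.0558, the smallest of any member in that comparison, and in LF pools by 0.04 ± 0.09.

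Rrm2, the small subunit whose expression is tied to S phase, read 7.17 in the reference pool, 7.41, 7.05, 7.06 and 6.68 for LF-NP, LF-HP, HF-NP, then HF-HP after 1 week, and 7.37, 6.72, 6.83 and 6.54 after 12 weeks. LF-NP was the highest and HF-HP the lowest diet at both weeks, with LF-HP and HF-NP in between. The HP minus NP difference was -0.42 ± 0.07 (SE) with an adjusted p of 0.0645, and the HF minus LF difference was -0.36 ± 0.07 with an adjusted p of 0.999. Its test for protein passed among genes above the median level (adjusted p 0.0242) and with array weights (0.0422), and over all alternatives the adjusted p ran from 0.0242 to 0.386.

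Pcna, the sliding clamp of DNA polymerases, read 9.05 in the reference pool, 9.07, 8.96, 9.10 and 9.12 after 1 week and 8.94, 8.87, 8.96 and 9.03 after 12 weeks. It varied by 0.25 over the 9 pools, and a further probe set gave nearly the same values. Tyms (thymidylate synthase) and Tk1 (thymidine kinase) did not have both HF-HP pools on top, with HP minus NP differences in HF pools of 0.29 ± 0.10 (SE) and 0.12 ± 0.17.

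Among the G2/M drivers, 5 of 7 members had both HF-HP pools above the other diet pools, Ccna2, Ccnb2, Cdk1, Plk1 and Aurka. Ccnb2, which encodes cyclin B2, the partner of CDK1 at mitotic entry, read 5.59 in the reference pool, 5.77, 6.24, 5.66 and 6.57 for LF-NP, LF-HP, HF-NP, then HF-HP after 1 week, and 5.67, 5.70, 5.63 and 6.55 after 12 weeks. The HF-HP pools were nearly equal at both weeks, and the LF-HP pool of 1 week was the next highest. HP exceeded NP by 0.91 ± 0.14 (SE) in HF pools, 1.88-fold, adjusted p 0.0869, and by 0.25 ± 0.14 in LF pools, adjusted p 0.658. Over all 8 pools the HP minus NP difference of 0.58 ± 0.15 was the largest of any member.

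Cdk1, the kinase that drives mitosis, read 5.74 in the reference pool, 5.63, 5.74, 5.73 and 6.44 after 1 week and 5.53, 5.48, 5.56 and 6.13 after 12 weeks. Its HF-HP pools lay above all 7 other pools, which spanned 5.48 to 5.74. HP exceeded NP by 0.63 ± 0.09 (SE) in HF pools, adjusted p 0.0640, and by 0.03 ± 0.09 in LF pools. Ccna2, which encodes cyclin A2 of S phase and G2, read 5.29 in the reference pool, 5.28, 5.42, 5.33 and 5.69 after 1 week and 5.32, 5.33, 5.09 and 5.51 after 12 weeks. The HF-HP pools again led, by 0.39 ± 0.09 (SE) over HF-NP. Foxm1, the transcription factor of this phase, was high in HF-HP at 1 week only, at 5.21 against 4.63 to 4.86 in the diet pools other than HF-HP, and Melk was flat, with a range of 0.20 over the 9 pools.

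**Figure D3:**
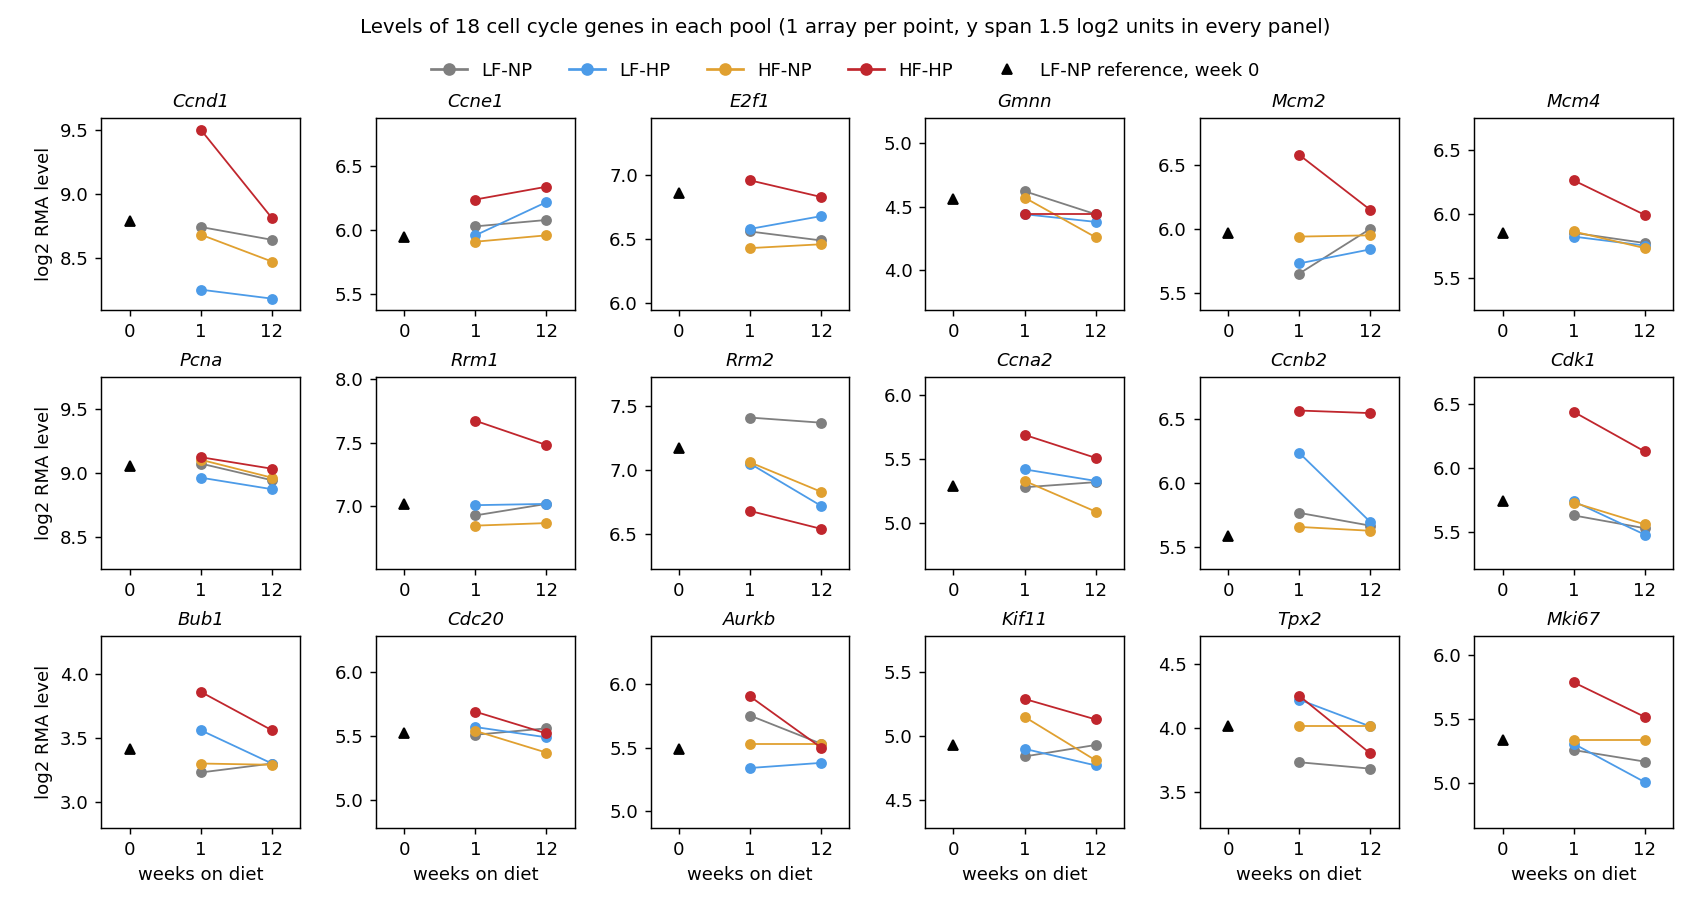
Log2 level (y axis, the same span in every panel) of the 18 members given in full, against weeks on the diet (x axis), with 1 point per pool, lines joining the pools of a diet and a triangle for the reference pool. The HF-HP points lie on top in the panels of Ccnd1, Mcm4, Rrm1, Cdk1 and Ccnb2, and at the bottom for Rrm2.

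Of the 5 genes of the spindle checkpoint and anaphase, Bub1, a checkpoint kinase, had both HF-HP pools on top, as did Rrm1 of the 5 genes of nucleotide supply. Bub1 read 3.41 in the reference pool, 3.23, 3.56, 3.30 and 3.86 for LF-NP, LF-HP, HF-NP, then HF-HP after 1 week, and 3.30, 3.30, 3.29 and 3.56 after 12 weeks, where the HF-HP pool of 12 weeks was level with LF-HP of 1 week to the second decimal. Cdc20, the activator of the anaphase-promoting complex, read 5.52 in the reference pool, 5.51, 5.57, 5.54 and 5.69 after 1 week and 5.56, 5.49, 5.37 and 5.52 after 12 weeks. Aurkb, the kinase of the chromosomal passenger complex, read 5.49 in the reference pool, 5.75, 5.34, 5.53 and 5.90 after 1 week and 5.53, 5.38, 5.53 and 5.50 after 12 weeks. For both, HF-HP was highest at 1 week and within the other pools at 12 weeks. Birc5 (survivin) and Bub1b were nearly flat over the diet pools, and Birc5 was highest in the reference pool, at 5.69.

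Among the 9 members of the spindle, chromosomes and cytokinesis, Prc1, Nusap1, Top2a and Mki67 had both HF-HP pools on top. Mki67, which encodes the proliferation marker Ki-67, read 5.34 in the reference pool, 5.26, 5.31, 5.34 and 5.79 for LF-NP, LF-HP, HF-NP, then HF-HP after 1 week, and 5.17, 5.01, 5.34 and 5.52 after 12 weeks. The HF-HP pools stood above all others, with an HF minus LF difference of 0.49 ± 0.10 (SE) in HP pools, adjusted p 0.353. Kif11, a motor that separates the spindle poles, read 4.93 in the reference pool, 4.84, 4.90, 5.15 and 5.29 after 1 week and 4.93, 4.77, 4.81 and 5.13 after 12 weeks. HF pools led at 1 week, and HF-HP alone at 12 weeks. Tpx2, a spindle assembly factor, read 4.01 in the reference pool, 3.73, 4.22, 4.01 and 4.25 after 1 week and 3.68, 4.01, 4.01 and 3.80 after 12 weeks. It had a negative protein-by-fat term of -0.39 ± 0.17 (SE), adjusted p 0.717, and LF-NP was its lowest diet at both weeks. Top2a, the topoisomerase that untangles chromosomes and chosen here after its values were seen, read 4.70 and 4.74 in the HF-HP pools and 4.03 to 4.45 in the other diet pools, with 4.62 in the reference pool. A further, dimmer probe set of Top2a had a protein-by-fat term of -0.21 against 0.80 for the one used. Kif20a varied by 0.07 and Cenpf by 0.41 over the 9 pools, with the HF-HP pools among the others, and Cenpe was highest in HF-HP at 1 week, at 3.57, and lowest in HF-HP at 12 weeks, at 3.27.

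**Figure D4:**
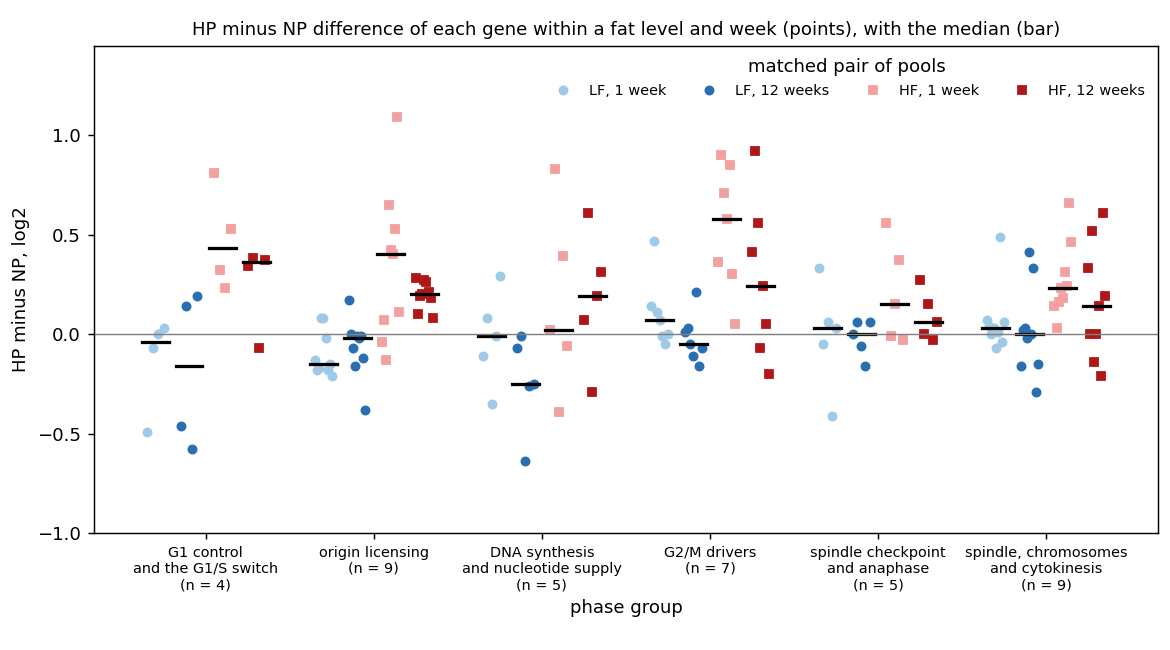
HP minus NP difference (y axis, log2) of each member between the pools of the same fat level and week, by group (x axis), with a point per gene and a bar at the median. At 1 week on high fat the medians were 0.43 for G1 control, 0.40 for origin licensing, 0.02 for nucleotide supply, 0.58 for the G2/M drivers, 0.15 for the checkpoint and 0.23 for the spindle group, and the LF medians lie between -0.25 and 0.07.

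In time the pattern was present at both weeks. The HF-HP pool was the highest of the 4 pools of its week for 32 of 39 members at 1 week, against 25.2% of genes, and for 24 at 12 weeks, against 30.6% of genes. The 12 minus 1 week difference had a median of -0.07, with 30 of 39 members negative against 54.6% of genes, and the median was -0.02 when the HF-HP pool of 1 week was left out and -0.13 when the LF-NP pool of 12 weeks was. The protein-by-week term was called for no gene (0%), with 1 member, Cdc6, at an unadjusted p under 0.05 against 2.62% of genes. The fat-by-week term was called for no gene (0%), with 0 members at an unadjusted p under 0.05 against 2.23% of genes. Whether the excess of the HF-HP pools differed between the weeks was not tested. Both terms were negative for most members, protein-by-week for 30 of 39 with a median of -0.10, against 49.9% of genes, and fat-by-week for 27 of 39 with a median of -0.06, against 51.8% of genes.

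Other genes of the same pathways were listed apart from the members. Both HF-HP pools were above the other diet pools for 3 of 28 other G1/S regulators (Ccnd3, Cdkn2c and Cdc25a), 4 of 45 other replication factors (Orc6, Dbf4, Pole and Chek1) and 11 of 62 other mitotic genes, which is 10.7%, 8.89% and 17.7% of these lists against 6.18% of all genes, with median protein-by-fat terms of 0.07, 0.06 and 0.10. The difference of these shares from that of the members was not tested. Spc25, a kinetochore subunit of the NDC80 complex, was the only gene of these lists past the test for protein, rising by 0.57 ± 0.08 (SE) in HP pools, adjusted p 0.0459. That call was lost with the matched pairs as blocks (adjusted p 0.0842) and with any pool left out (0.0645 to 0.198), and over all alternatives its adjusted p ran from 0.0159 to 0.198. It read 6.53 and 6.32 in the LF-HP pools and 6.44 and 6.41 in the HF-HP pools against 5.75 to 6.04 in the NP diet pools and 6.16 in the reference pool, so it was high with HP at both fat levels. Chek1, the replication checkpoint kinase, read 4.66 and 4.38 in LF-HP and 4.89 in both HF-HP pools against 3.80 to 4.31 in the NP diet pools, a difference of 0.56 ± 0.10 (SE) with an adjusted p of 0.0799. Dna2, a nuclease of replication, had an HP minus NP difference of -0.34 ± 0.09, adjusted p 0.226. Cdkn1b, which encodes the inhibitor p27, had one of -0.20 ± 0.05, adjusted p 0.236, and E2f8, an E2F repressor, had a 12 minus 1 week difference of -1.10 ± 0.22, adjusted p 0.499.

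Targets of p53 had both HF-HP pools on top for 5 of 24 genes (20.8% against 6.18% of all genes), Ccng1, Zmat3, Plk2, Plk3 and Ddit4, and a median protein-by-fat term of 0.10. Plk3, a stress-responsive polo-like kinase chosen here after its values were seen, read 9.90 in the reference pool, 9.72, 9.48, 8.79 and 10.57 for LF-NP, LF-HP, HF-NP, then HF-HP after 1 week, and 8.98, 9.54, 8.17 and 10.27 after 12 weeks. Its HF-HP pools were the highest and its HF-NP pools the lowest at both weeks. It rose with HP in HF pools by 1.94 ± 0.19 (SE), adjusted p 0.0344, the only gene of the members and pathway lists past that test, a call lost with any pool left out (adjusted p 0.0818 to 0.464), and differed by 0.16 ± 0.19 in LF pools, adjusted p 0.858. The genes with the largest statistics over protein, fat and week in that list, Epha2 and Fas, differed by week, with 12 minus 1 week differences of -0.57 ± 0.07 (SE), adjusted p 0.338, and -0.40 ± 0.07, adjusted p 0.462. Hepatocyte growth signals had both HF-HP pools on top for 1 of 24 genes (4.17%), Fgfr4, and a median protein-by-fat term of -0.04. In that list Erbb3, a receptor kinase, had an HP minus NP difference of -0.50 ± 0.12, adjusted p 0.178, and the immediate early gene Jun one of 0.44 ± 0.11, adjusted p 0.199.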

How the data were processed

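The deposited values are log2 expression estimates that the authors made with robust multiarray analysis (RMA), which corrects the background, normalises between arrays by quantiles and summarises probes per probe set. They were used as given for 35556 probe sets of Affymetrix Mouse Gene ST arrays in 9 pools. Per the study's methods probes were regrouped by Entrez gene before RMA, whereas the deposited table holds the array's own probe sets, so these values are not those the study analysed. Of these probe sets, 21789 carried 1 gene symbol in the array annotation, 1621 several and 12146 none. The probe set with the highest mean was taken for each of 19938 genes, with no filter on level. Precision is limited by the number of arrays, which hold no counts.

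Protein, fat and week were fitted as additive terms over the 8 diet pools with limma 3.58.1 in R 4.3.3 (4 residual and 3.52 prior degrees of freedom), and interactions with 1 more term at a time. Standard errors (SE) are those of limma, and p-values carry the Benjamini-Hochberg adjustment over all genes, with a threshold of 0.05. With 1 pool per diet and week, p-values measure the spread that the terms leave between pools. The reference pool stayed out of the fits.

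The members, the pathway lists and the markers were chosen with earlier results of these data known. Members are given in full if past the test, or among the 3 of their group with the largest absolute t, and pathway genes if past the test or among the 2 with the largest absolute t of a list. Genes named for their order among pools, the differences within 1 fat or protein level and the alternatives on them were chosen after the values were seen. Alternatives were a filter on the median level, a prior trend, array weights, centring, the mean of probe sets, no covariates, matched pairs of a fat level and week as blocks, pools of 1 level alone, each pool left out, and a threshold of 0.1. Upstream windows were RefSeq's, 250 bases on GRCm38.p6. Figures were drawn with matplotlib 3.10.9 and tables made with pandas 2.3.3 under Python 3.11.15.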

Additional observations from a re-analysis of the deposited data

Results flagged for a closer look

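In the pools of 1 protein level, 36 groups of 4 pools were checked for a pool far from the other 3, and 3 were found. Among like samples chance alone marks about 1 in 20. The pools of a group differ in fat level and week, so that rate need not hold here. Gmnn read 4.38 in the LF-HP pool of 12 weeks against 4.44 in the other HP pools. Bub1 read 3.23 in the LF-NP pool of 1 week against 3.29 to 3.30 in the other NP pools. Aurkb read 5.75 in the LF-NP pool of 1 week against 5.53 in the other NP pools. The gaps for Gmnn and Bub1 are below 0.1 on the log2 scale.

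For 9 of the 39 members HP was below NP in both LF pairs of pools and above NP in both HF pairs, which held for 6.6% of all genes, and no member went the opposite way, which held for 3.41% of genes. The difference between the HF and LF effects of protein was 1.05 for Ccnd1, 0.35 for Mcm4, 0.46 for Mcm5, 0.77 for Mcm6, 0.38 for Mcm7, 0.13 for Pcna, 0.43 for Tyms, 0.28 for Aurka and 0.80 for Top2a on the log2 scale. None passed the test of that difference in limma, with adjusted p from 0.541 for Top2a to 0.769 for Pcna. For Mcm4 the LF pairs differed by only -0.02 each, and for Pcna the HF pairs by 0.02 and 0.07.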

How the results depend on the processing

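The number of members called for HP against NP was 0 in the fit reported and 1, Rrm2, among genes above the median level, with array weights and at an adjusted p under 0.1. It was 0 in all other settings run, matched pairs of a fat level and week as blocks included, as were the calls for fat and week in every setting. The median HF minus LF difference of the members, 0.09 over all diet pools, was 0.26 in HP pools alone and -0.03 in NP pools alone. With each pool left out in turn this median ran from 0.02 (HF-HP of 1 week) to 0.15 (HF-NP of 1 week or LF-NP of 12 weeks), 0.04 and 0.05 being the values without LF-HP of 1 and 12 weeks. Leaving out a pool moved the HP minus NP median between 0.05 and 0.19 and the 12 minus 1 week median between -0.13 and -0.02. The number of members with a positive protein-by-fat term at an unadjusted p under 0.05 was 15, and 9 of the 13 members that passed a filter on the median level, against 7.91% of the genes that passed it. When each pool was left out in turn it ran from 4 (the LF-NP pool of 12 weeks, 2.67% of genes) to 16 (HF-HP of 12 weeks, 4.72% of genes). It was 13 to 14 with a prior trend, array weights, centring or the mean of probe sets, against 3.6% to 5.03% of genes. No member was called after adjustment in any of these settings. Both HF-HP pools were above the other diet pools for 8 of the 13 members past the filter, against 9.21% of genes past it. With centred arrays this held for 19 members and for 4.91% of genes. With each pool left out it held for 20 to 29 of 39 members and for 6.72% to 18.3% of genes. The 18.3% was without the HF-HP pool of 1 week, where it held for 21 members. The 29 were without the HF-HP pool of 12 weeks, where 15.2% of genes have the remaining HF-HP pool on top. Leaving out a pool leaves a diet and week without a value, and the fit then takes its spread from the others. Array weights of the additive fit were lowest for the HF-HP pool of 12 weeks, at 0.385. That fit holds no protein-by-fat term, and the weights used with that term are not given here. Of the values of single members under other settings, 223 kept direction and side of the threshold and 2, both of Rrm2, newly passed it, and none changed sign. The cause of these changes was not tested.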
